A study of Mus musculus with 12 samples.

Results

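The protein components of the cytosolic ribosome were followed in mouse spleen by taking every array probe whose single gene symbol is an Rpl, Rps or Rplp symbol, with processed pseudogenes (symbols with -ps) and the S6 kinases left out. This rule gave 61 genes of the 19057 genes that carry 1 symbol on the array, measured by 90 probes, and the probe with the highest mean over the mice stood for a gene with several. By their symbols, 34 of them were counted with the large subunit, 24 with the small subunit and 3 with the P stalk, paralogs included. The rule itself reads gene symbols only.

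The RNA came from spleens of 12 male C57BL/6J mice, 4 on each of 3 diets, and each mouse has 1 array, an Illumina MouseWG-6 v2.0 BeadChip. The mice arrived at 6 weeks of age, were acclimatized for 3 weeks and were fed for 8 weeks. The control group ate a diet with 12% of its energy from fat, and both high-fat diets took 32% from fat. Both high-fat diets also held cholesterol, which the control diet lacked, and more coconut oil and sucrose. In comparisons with control, these cannot be told apart from the share of fat. HFD-CO held 5 g of corn oil per 100 g, whereas HFD-ED held 3 g of corn oil and 2 g of triglycerides rich in the long-chain n-3 fatty acids EPA and DHA, the fatty acids of fish oil, on an otherwise shared high-fat base. The authors chose the mice of each diet by their weight and by triglyceride and cholesterol in plasma, so they are not a random draw of their groups. Titles and tissue labels name spleen while 1 protocol text names skeletal muscle. Of the marker genes with a measured probe, 9 of 10 B cell genes and 9 of 13 T cell genes had a mean of at least 7.5 log2 units, a level that 75.2% of all probes stay under. Levels below are normalized log2 values, made by variance stabilization and quantile normalization of the arrays, and a difference of 1 is a doubling for bright probes and less than the true change for dim ones. The number of arrays limits the precision.

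The ribosome makes every protein of the cell. Its small subunit decodes the messenger RNA, its large subunit joins the amino acids, and the acidic P proteins form a stalk on the large subunit that recruits elongation factors. Ribosomal protein transcripts belong to a class that starts with a tract of pyrimidines at the very 5′ end, the TOP motif, through which the growth-sensing kinase mTORC1 and the protein Larp1 adjust their translation. The production of ribosomes matters in blood-forming tissue in particular, since loss of 1 copy of several of these genes causes the red cell failure of Diamond-Blackfan anaemia, and the mouse spleen is a site of both red cell formation and lymphocyte traffic.

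Pyrimidine runs near the annotated starts of 6 of the 7 genes with an unadjusted p under 0.05 in a comparison are shown here, without a claim that they are the tract at the very end of the transcript. The windows of 30 bases come from RefSeq promoters of the GRCm38.p6 build, run 5′ to 3′ on the gene's strand, and carry in capitals the longest unbroken run of C and T found between 30 bases before and 50 bases after the annotated start. Rplp0 lies at chr5:115559466-115559495 on the plus strand, Rpl13a at chr7:45128722-45128751 on the minus strand, Rpl38 at chr11:114668568-114668597 on the plus strand and Rpl9 at chr5:65391383-65391412 on the minus strand. Rps12 lies at chr10:23787182-23787211 on the minus strand and Rpl22 at chr4:152324413-152324442 on the plus strand.
Rpl13a: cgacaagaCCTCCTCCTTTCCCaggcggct
Rps12: ccaccgccggCCTTTTCCCCTgccgccgcc
Rpl38: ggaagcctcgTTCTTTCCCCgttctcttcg
Rpl9: acgaaagacgTTCTCTCTTTgccccatcta
Rplp0: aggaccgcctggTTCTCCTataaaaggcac
Rpl22: aatatcagcgctgCTTCTggaatgttccag

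The run was 14 bases in Rpl13a, 11 in Rps12, 10 in Rpl38 and in Rpl9, 7 in Rplp0 and 5 in Rpl22. Of the 2 Rpl22 promoters, the window comes from one that holds no shorter run than the other. It began at an offset of 2 bases from the annotated start in Rpl13a, 8 in Rps12, -2 in Rpl38, 29 in Rpl9, 11 in Rplp0 and -10 in Rpl22, so of these 6 only the runs of Rpl13a and Rpl38 began within 2 bases of that start. Over the 50 genes with an entry in the promoter table, which have 60 promoters, the median longest run was 10 bases, against 6 over all 32851 promoters. A run of at least 8 bases, each C or T on the gene's strand, was present in 41 promoters of ribosomal protein genes (68.3%) and in 29% of all promoters. The letters CCGGAAG, which ETS factors such as GABP bind, were searched on both strands of the 300 bases from 250 before to 50 after the start. They were found in 23 promoters (38.3%), Rpl38 among them, and in 8.86% of all promoters. On the reverse strand this motif reads CTTCCGG, whose first letters can be part of a C and T run. These matches describe letters in annotated windows, not bound or used sites.

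Ribosomal protein probes were among the brightest on the arrays. Of the 61 genes, 43 had a mean in the top 1% of probes, above 12.08 log2 units, where 453 probes lie. Between 14 and 15 lay 20 genes, between 12 and 14 lay 23, between 10 and 12 lay Rpl13a, Rpl30, Rpl4 and Rps3a1, and between 7.5 and 10 lay Rpl21, Rpl22, Rpl22l1, Rpl7l1 and Rplp0. The array maximum after quantile normalization is 14.79, and 5 single values of ribosomal protein genes were at that maximum, where a further increase cannot be seen. Under 7.5 lay 9 genes, namely Rpl14, Rpl17, Rpl39l, Rpl3l, Rpl6, Rps15a, Rps20, Rps23 and Rps4l. Their probes were close to the lower end of the scale in the mice of every diet and can show little. Brightness also depends on the probe, so the level of 1 gene is not set against that of another here. For 46 of the genes the RefSeq annotation names pseudogene copies (228 in all), whose transcripts a probe could share with the gene, and this was not tested.

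No ribosomal protein gene was called in any of the 3 comparisons, and by the probe used for each, the folds of all 61 genes lay between 0.839 and 1.18. Further probes of some genes, given below, differed more. For HFD-ED against control, 24 genes were higher and 37 lower, with a median difference of -0.013 log2 units and a range from -0.25 to 0.22. In limma with Benjamini-Hochberg adjustment over all probes, 0 of 61 genes passed an adjusted p of 0.05, as did 0% of all 45281 probes, and the smallest adjusted p was 0.430, for Rplp0. At an unadjusted p of 0.05, Rplp0 was higher and Rpl22 lower, which is 3.28% of the genes. Over all probes the share was 10.2% (4.54% higher and 5.67% lower), and it was 25.1% over the 7014 genes with a mean of at least 7.5. The 4 mice of 1 diet lay wholly above the 4 of the other for Rplp0 alone, and wholly below for 0 genes, against 1.82% and 2.85% of all probes. The median over all genes was -0.0036, and that over genes with a mean of at least 7.5 was -0.032. The 95% interval of the difference stayed within 0.25 log2 units of no change for 37 of the 61 genes and within 0.5 for all of them. Interval counts, here and below, include the 9 genes with a mean under 7.5, at the compressed lower end of the scale. In this comparison the intervals of these dim genes all lay within 0.25, which says little about the precision for the brighter genes. The unadjusted count went from 0 without control replicate 1 to 4 without HFD-ED replicate 3, and it was 1 when any 1 of the HFD-CO mice was left out. Here and below, the share over all probes was not taken with a mouse left out. The median went from -0.025 without control replicate 4 to -0.0072 without control replicate 1.

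HFD-CO was set against control to see the high-fat diet as a whole, without the added EPA and DHA. Of the 61 genes, 23 were higher and 38 lower, with a median of -0.018 and a range from -0.22 to 0.13. None was called by limma at an adjusted p of 0.05 (0% of all probes), and the adjusted p was 1.0 throughout. At an unadjusted p of 0.05, 0 genes were higher and 3 lower, namely Rps12, Rpl29 and Rpl9. This is 4.92% of the genes, against 4.58% of all probes (2.14% higher and 2.44% lower) and 6.32% of the genes with a mean of at least 7.5. The mice of both diets did not overlap for 1 gene, Rps10, which was lower, against 1.44% of all probes higher and 1.57% lower. The intervals lay within 0.25 log2 units for 36 genes and within 0.5 for 60, the exception being Rps3a1. The count of 3 went to 1 without control replicate 4 or HFD-CO replicate 3 and to 5 without HFD-CO replicate 2, and the median went to -0.0013 without control replicate 1.

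The high-fat diets were compared with each other at equal fat content. Here 34 genes were higher with HFD-ED and 27 lower, with a median of 0.0034 and a range from -0.18 to 0.24. By limma, 0 genes were called at an adjusted p of 0.05 (0.00221% of all probes), and the smallest adjusted p was 0.475, again for Rplp0. At an unadjusted p of 0.05, Rplp0 and Rpl13a were higher and Rpl38 lower, 4.92% of the genes. The share was 9.3% over all probes (4.6% higher and 4.7% lower) and 21.6% over genes with a mean of at least 7.5. Non-overlap was seen for 0 genes in either direction, against 1.73% and 2.24% of all probes. The intervals lay within 0.25 log2 units for 35 genes and within 0.5 for 60, Rps3a1 again excepted. With 1 mouse left out the median turned sign, from -0.0056 without HFD-CO replicate 1 to 0.011 without HFD-CO replicate 4. The count of 3 reached 6 without HFD-ED replicate 3, and 8 when all probes of a gene were averaged, and no share over all probes was taken in these settings. Each pair of comparisons shares the mice of a diet, so their values are given side by side and not as separate evidence.

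**Figure D1:**
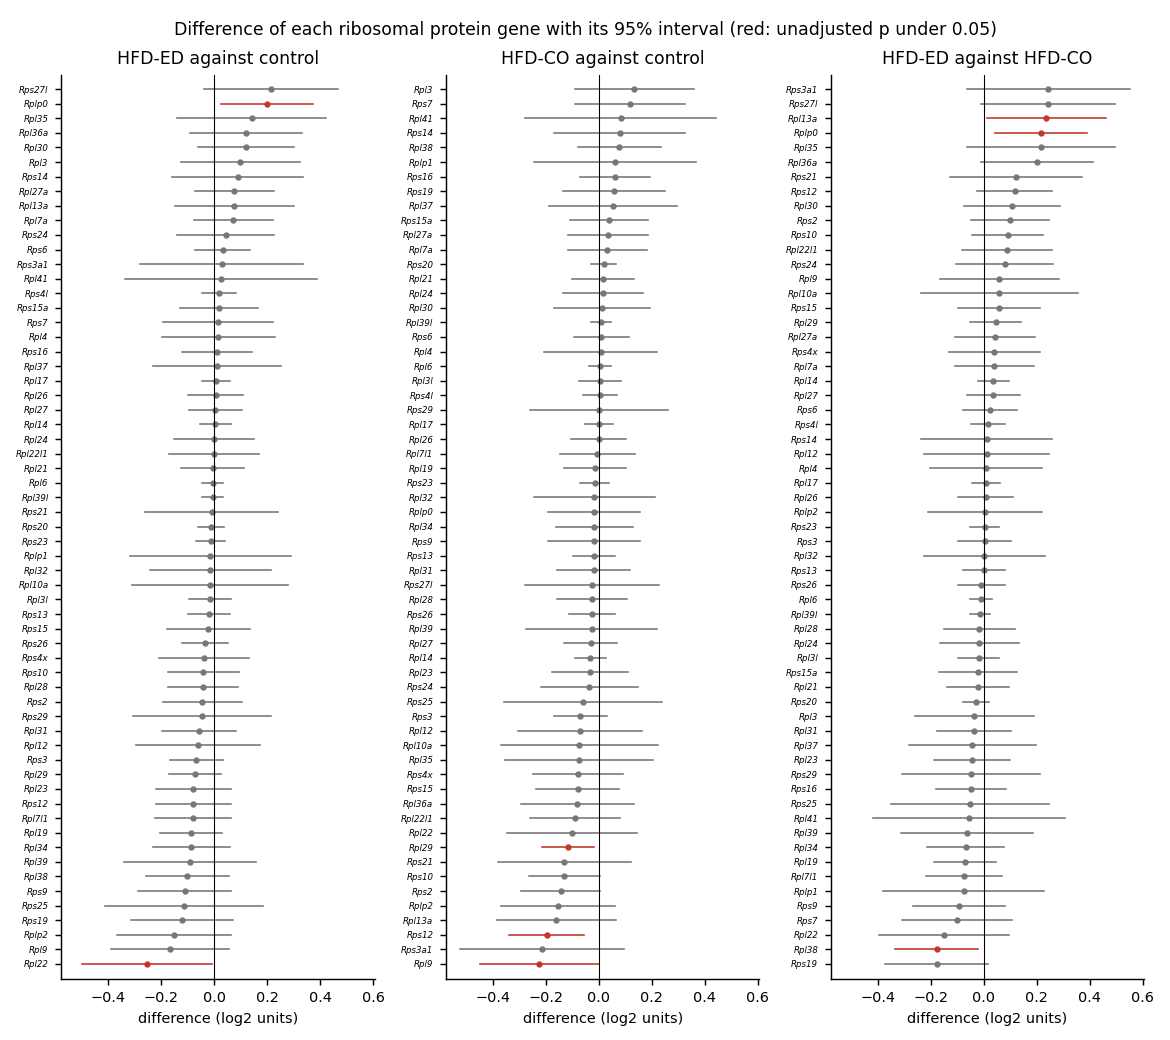
Fitted difference of each of the 61 genes with its 95% interval, in log2 units on the x axis, for HFD-ED (left) and HFD-CO (middle) against control and for HFD-ED minus HFD-CO (right), sorted by size within each panel. Red marks the 2, 3 and 3 genes with an unadjusted p under 0.05, and the intervals of most genes cross 0.

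Of the P stalk genes, Rplp0 encodes the protein that anchors the stalk to the large subunit, and Rplp1 and Rplp2 encode the proteins that form its flexible arms. Rplp0 read 8.29, 8.34, 8.37 and 8.41 in control replicates 1 to 4, 8.15, 8.20, 8.51 and 8.48 in the HFD-CO mice, and 8.45, 8.52, 8.60 and 8.64 in the HFD-ED mice. The means were 8.35 ± 0.050 in control, 8.34 ± 0.185 in HFD-CO and 8.55 ± 0.083 in HFD-ED (SD, n = 4 each). All HFD-ED mice lay above all control mice, while the HFD-CO mice fell into a lower and a higher pair and overlapped with both other diets. The difference was 0.20 (SE 0.079, 1.15-fold) against control, with an unadjusted p of 0.0283 and an adjusted p of 0.430, and 0.22 (SE 0.079, 1.16-fold) against HFD-CO, with an unadjusted p of 0.0191 and an adjusted p of 0.475. Between HFD-CO and control it was -0.018. Without HFD-ED replicate 3 the difference from control was 0.18 and that from HFD-CO 0.20. With 1 mouse left out, the difference from control ran from 0.17 (without HFD-ED replicate 4) to 0.23 (without HFD-ED replicate 1). The difference from HFD-CO ran from 0.16 (without HFD-CO replicate 1) to 0.27 (without HFD-CO replicate 3). Rplp1 read 14.45, 14.65, 14.54 and 14.63 in control, 14.62, 14.79, 14.38 and 14.74 in HFD-CO, and 14.70, 14.79, 14.11 and 14.62 in HFD-ED. HFD-ED replicate 3 was the lowest of all mice, and HFD-CO replicate 2 and HFD-ED replicate 2 were at the array maximum. Rplp2 read from 13.78 to 14.12 in control, from 13.50 to 13.93 in HFD-CO and from 13.60 to 13.81 in HFD-ED, with differences of -0.15 for both high-fat diets against control (SE 0.098 each). The difference with HFD-ED was -0.072 without control replicate 2. The 3 proteins work in 1 complex, but their probes differed in direction with HFD-ED against control, and only Rplp0 had an unadjusted p under 0.05.

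Of the large-subunit genes, Rpl22 encodes an RNA-binding protein that developing alpha-beta T cells need. It read 10.19, 9.97, 9.89 and 9.86 in control, 9.84, 9.87, 9.84 and 9.97 in HFD-CO, and 9.78, 9.88, 9.36 and 9.89 in HFD-ED. Control replicate 1 was the highest of all mice and HFD-ED replicate 3 the lowest, with the other mice between 9.78 and 9.97. The difference of -0.25 between HFD-ED and control (SE 0.11, 0.839-fold, unadjusted p = 0.0454, adjusted p = 0.478 by limma) became -0.13 without HFD-ED replicate 3. In that mouse the T cell markers, 13 of 15 measured, averaged 0.41 log2 units below their 12-mouse mean (-0.41). Other lists also stood apart there, with -0.45 for B cell and -0.32 for plasma cell markers. Erythroid, neutrophil and cell division markers stood at 1.35, 1.75 and 0.89. The part of any of these lists in the Rpl22 value was not tested.

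Rpl13a encodes a protein that, once released from the ribosome after interferon-gamma, silences inflammatory transcripts. It read 10.66, 10.61, 10.67 and 10.76 in control, 10.57, 10.59, 10.63 and 10.27 in HFD-CO, and 10.59, 11.04, 10.76 and 10.61 in HFD-ED. Apart from HFD-CO replicate 4, which was low, and HFD-ED replicate 2, which was high, the mice lay between 10.57 and 10.76. The difference of 0.24 between HFD-ED and HFD-CO (SE 0.10, 1.18-fold, unadjusted p = 0.0408, adjusted p = 0.521 by limma) was 0.14 without HFD-ED replicate 2 and 0.15 without HFD-CO replicate 4. HFD-CO replicate 4 was also the mouse with the highest pancreatic acinar markers, a mean of 4.52 above the 12-mouse mean over 20 of 25 measured genes, whose part was not tested.

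Rpl38, whose loss in mice disturbs the translation of Hox transcripts, read 14.44, 14.20, 14.41 and 14.55 in control, 14.44, 14.52, 14.53 and 14.42 in HFD-CO, and 14.25, 14.26, 14.23 and 14.45 in HFD-ED. Of the HFD-ED mice, 3 lay below every HFD-CO mouse, and replicate 4 lay among them. The difference was -0.18 (SE 0.071, unadjusted p = 0.0297, adjusted p = 0.499 by limma). Rpl9 read 14.49, 14.33, 14.35 and 14.43 in control, 14.08, 14.36, 13.88 and 14.37 in HFD-CO, and 14.22, 14.13, 14.38 and 14.20 in HFD-ED. The HFD-CO mice fell into a pair at the control level and a pair below it. The difference between HFD-CO and control was -0.22 (SE 0.10, unadjusted p = 0.0488), and -0.13 without HFD-CO replicate 3. Rpl29, at 12.75, 12.64, 12.76 and 12.78 in control, read 12.63, 12.68, 12.59 and 12.56 in HFD-CO and 12.68, 12.61, 12.59 and 12.76 in HFD-ED. Of the HFD-CO mice, replicate 2 alone exceeded the lowest control mouse, and the difference was -0.12 (SE 0.044, unadjusted p = 0.0223).

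**Figure D2:**
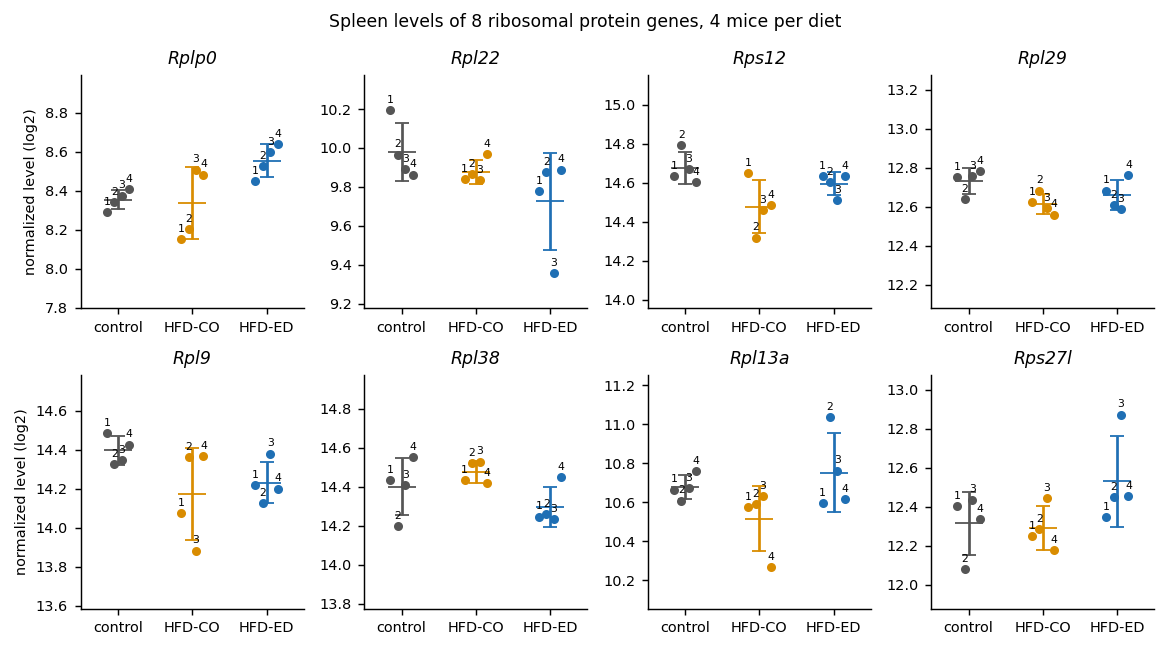
Normalized log2 level (y axis, spanning the same range in every panel) of the 7 genes with an unadjusted p under 0.05 in some comparison and of Rps27l, in the 4 mice of each diet (points, numbered by replicate), with the diet mean and SD (bars). The diets overlap in these panels except for Rplp0, where the HFD-ED mice, 8.45 to 8.64, lie above the control mice, 8.29 to 8.41.

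Other large-subunit genes had an unadjusted p above 0.05 in every comparison. Rpl26, which binds the p53 transcript, read from 13.38 to 13.57 in control, 13.38 to 13.56 in HFD-CO and 13.42 to 13.52 in HFD-ED, and its differences of 0.0053 and -0.0016 from control and of 0.0069 between the high-fat diets had an SE of 0.047. Rpl36a was 0.12 higher with HFD-ED than in control and 0.20 higher than with HFD-CO (SE 0.096, unadjusted p = 0.0607 for the latter), and the 0.12 was 0.058 without HFD-ED replicate 1. Rpl19 differed by -0.086 and -0.070 in the same comparisons (SE 0.053), and by -0.046 without control replicate 1 and -0.039 without HFD-ED replicate 4. Rpl30 and Rpl27a differed by 0.12 and 0.076 between HFD-ED and control, and by 0.078 without HFD-ED replicate 1 and 0.038 without control replicate 2. Rpl3, which helps to form the peptidyl transferase centre, differed by 0.13 between HFD-CO and control (SE 0.10), and by 0.046 without HFD-CO replicate 3.

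Of the small-subunit genes, Rps12 had the smallest p in the comparison of HFD-CO with control. It read 14.63, 14.79, 14.67 and 14.60 in control, 14.65, 14.32, 14.46 and 14.49 in HFD-CO, and 14.63, 14.60, 14.51 and 14.63 in HFD-ED. Below the lowest control mouse lay 3 of the HFD-CO mice, and replicate 1 lay among the control mice. The difference was -0.20 (SE 0.064, 0.872-fold), with an unadjusted p of 0.0109 and an adjusted p of 1.0 by limma. Control replicate 2 was at the array maximum. Rps10, a gene of Diamond-Blackfan anaemia, read 13.34, 13.38, 13.29 and 13.28 in control, 13.25, 13.21, 13.05 and 13.25 in HFD-CO, and 13.33, 13.42, 13.19 and 13.17 in HFD-ED. All HFD-CO mice lay below all control mice, by -0.13 on average (SE 0.061, unadjusted p = 0.0543), and by -0.083 without HFD-CO replicate 3. Rps2 differed by -0.14 between HFD-CO and control (SE 0.067, unadjusted p = 0.0541), with overlap and with control replicate 3 at the array maximum.

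Rps19, the gene most often mutated in Diamond-Blackfan anaemia, read 14.25, 14.30, 14.24 and 14.14 in control, 14.27, 14.40, 14.28 and 14.22 in HFD-CO, and 14.14, 13.82, 14.33 and 14.17 in HFD-ED. HFD-ED replicate 2 was the lowest mouse. The difference of -0.18 from HFD-CO (SE 0.088, unadjusted p = 0.0681, adjusted p = 0.579 by limma) became -0.081 without it. The 10 genes of this disease that were measured, of 18 listed, had medians of -0.015 for HFD-ED and -0.023 for HFD-CO, both against control. For HFD-ED minus HFD-CO the median was -0.00075, and 0 of the 10 had an unadjusted p under 0.05 in any comparison. Over all probes the shares at that p were 10.2%, 4.58% and 9.3% in this order. Over genes with a mean of at least 7.5, as all 10 are, they were 25.1%, 6.32% and 21.6%. A list of 10 genes is too short to be read against these shares. Rps14, lost in the 5q- syndrome, differed by 0.089, 0.078 and 0.011 (SE 0.11), with control mice from 14.05 to 14.55. Rps6, the substrate of the S6 kinases, read from 13.25 to 13.46 over all 12 mice, and its differences were 0.032, 0.0084 and 0.024 (SE 0.047). Rps3, which also binds NF-kB in the nucleus, read from 13.06 to 13.26, and differed from control by -0.068 with HFD-ED and by -0.071 with HFD-CO (SE 0.045). Rps7 and Rps16 were 0.12 and 0.061 higher with HFD-CO than in control, with an SE of 0.094 and 0.060, and the difference of Rps16 was 0.0070 without HFD-CO replicate 2.

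The list of paralogs with restricted or alternative expression gave 6 measured genes of 7 listed. Rps27l, a p53-inducible relative of Rps27, had the widest spread of them. It read 12.41, 12.08, 12.44 and 12.34 in control, 12.25, 12.29, 12.45 and 12.18 in HFD-CO, and 12.35, 12.45, 12.87 and 12.46 in HFD-ED. HFD-ED replicate 3 stood above every other mouse. The difference was 0.22 from control (SE 0.11, unadjusted p = 0.0866) and 0.24 from HFD-CO (unadjusted p = 0.0598), and 0.10 and 0.13 without that mouse. Rpl22l1, which can take the place of Rpl22, read from 7.59 to 7.71 in control, 7.48 to 7.64 in HFD-CO and 7.46 to 7.90 in HFD-ED, with a difference of -0.0016 between HFD-ED and control (SE 0.077) beside the -0.25 of Rpl22. Rpl7l1 differed by -0.081 in the same comparison (SE 0.065). Rpl39l, known from the testis, Rpl3l, known from striated muscle, and Rps4l lay between 7.06 and 7.35 in all mice and the widest of their differences was -0.019, for Rpl3l between HFD-ED and HFD-CO.

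Seen per mouse, the genes stayed close to their 12-mouse means. Quantile normalization gives every array the same set of values, and 43 of the 61 genes lie in the top 1% of probes. A shift shared by most of these genes would be partly removed by it, so medians near 0 cannot show that no such shift took place. The mean deviation over the 61 genes ran from -0.029 in HFD-CO replicate 3 to 0.052 in control replicate 1, where 14 genes were at their highest. Large- and small-subunit genes had medians of 0.048 and 0.042 in control replicate 1. HFD-ED replicate 3 had the widest scatter, with an SD of 0.21 over the genes and deviations from -0.55 to 0.60, against an SD from 0.077 to 0.15 in the other mice. In that mouse 11 genes were at their highest and 10 at their lowest of the 12 mice, so that its mean deviation was -0.0043. Rpl41 read 13.87 there and from 14.24 to 14.67 in the other mice, and Rpl35 read 14.54 there and from 13.76 to 13.98 elsewhere. Rps3a1 spread within the control mice instead, from 11.40 to 12.01, and its difference of -0.22 between HFD-CO and control had an SE of 0.14.

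HFD-ED replicate 3 also stood apart beyond the ribosome, with a mean absolute deviation of 0.252 over all genes with a mean of at least 7.5, against 0.0863 to 0.154 in the other mice. Ribosomal protein genes with such a mean deviated by 0.167 there. They deviated less than all genes of that range in 11 of the 12 mice, the exception being HFD-CO replicate 3, with 0.107 against 0.0979. The SD within a diet had a median of 0.121 for these 52 genes and of 0.129 over all 7014 such genes. In the top 1% of probes it was 0.118 for 43 ribosomal protein genes and 0.127 for all 235 genes.

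**Figure D3:**
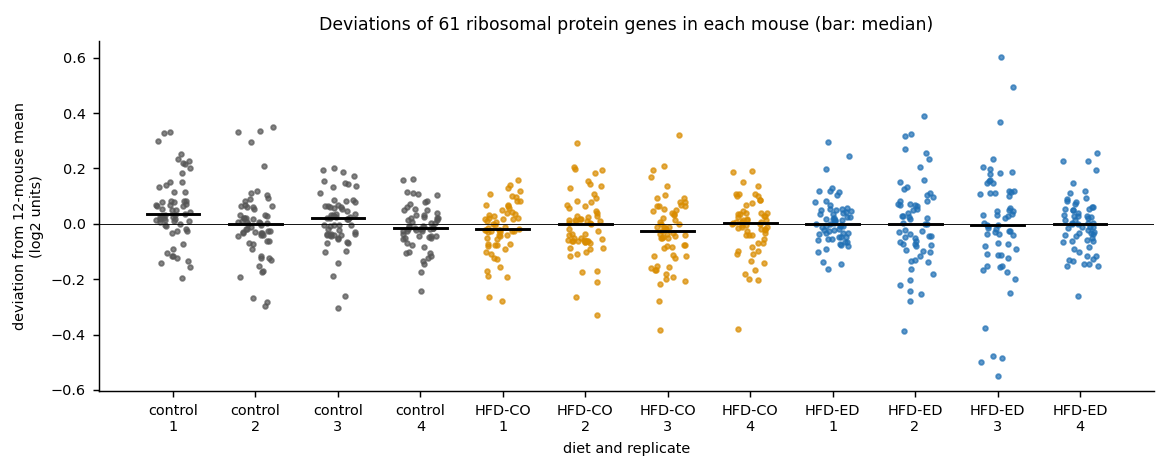
Deviation of each of the 61 genes from its own 12-mouse mean (y axis, log2 units) in each mouse (x axis, by diet and replicate), 1 point per gene, with the median as a bar. The medians lie close to 0 in all mice, from -0.025 to 0.035, and HFD-ED replicate 3 scatters most, from -0.55 to 0.60.

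Markers of erythroid cells, neutrophils and dividing cells differed more between the same mice, in level and in median difference, than ribosomal protein genes did. The limit that quantile normalization sets on a shared shift of the brightest probes, given above, also bears on this contrast. The erythroid list, 25 of 28 genes measured and 21 of them with a mean of at least 7.5, had a mean level from 8.62 to 9.50 in control, 8.57 to 9.62 in HFD-CO and 8.75 to 10.62 in HFD-ED mice. Its median difference from control was 0.82 with HFD-ED (0.56 without replicate 3) and -0.021 with HFD-CO, which turned to 0.11 without control replicate 4. The neutrophil list (12 of 12 measured, 10 with such a mean) ranged from 8.48 to 9.34, 8.33 to 8.82 and 8.82 to 10.83 in the same order, and the cell division list (18 of 20, 15 with such a mean) from 8.09 to 8.67, 8.20 to 8.80 and 8.54 to 9.51. For B cell markers it was 9.60 to 9.70, 9.59 to 9.68 and 9.12 to 9.67, and for T cell markers 8.79 to 8.91, 8.85 to 8.96 and 8.44 to 8.95. Pancreatic acinar markers (20 of 25, 17 with such a mean) ran from 7.15 to 7.64, 7.16 to 12.35 and 7.18 to 7.66, with the highest value in HFD-CO replicate 4. Plasma cell markers (6 of 6, 3 with such a mean) ran from 9.10 to 9.35, 9.23 to 9.40 and 8.93 to 9.33. No gene of these lists passed the adjusted threshold in these data, and their part in the ribosomal protein values was not tested. In bulk tissue, fewer cells of a type and less RNA per cell cannot be told apart.

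Other genes of the translation apparatus gave medians near 0 as well. Of 19 translation factors and TOP-type partners, 18 were measured, with medians of 0.022 for HFD-ED and -0.016 for HFD-CO against control, and of -0.0013 for HFD-ED minus HFD-CO, the order kept for each further list. Medians of this size depend on single mice: that for HFD-CO was 0.021 without HFD-CO replicate 4 and -0.055 without control replicate 3, and that for HFD-ED minus HFD-CO was 0.025 without HFD-CO replicate 1. Naca, a subunit of the complex that shields nascent chains, differed from control by -0.17 with HFD-ED (SE 0.048, adjusted p = 0.312 by limma) and by -0.11 with HFD-CO, the latter -0.059 without control replicate 1. Eef1d, of the exchange factor for elongation factor eEF1A, differed by 0.24 between HFD-ED and HFD-CO, and Eef1a1 itself by -0.15, which was -0.095 without HFD-ED replicate 2. Of 70 ribosome biogenesis genes, 69 were measured, with medians of 0.017, 0.0030 and 0.023. At an unadjusted p of 0.05, 6 were higher and 2 lower with HFD-ED than in control, Nhp2 of the H/ACA particle among them with 0.42 (adjusted p = 0.310 by limma) and Sbds, which helps to release eIF6 from the new large subunit, with -0.18. HFD-CO gave 0 higher and 3 lower than control, and HFD-ED gave 5 higher and 0 lower than HFD-CO. Over all probes the shares at that p were 10.2%, 4.58% and 9.3% in the order above, and over genes with a mean of at least 7.5, as 57 of the 69 are, 25.1%, 6.32% and 21.6%.

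The mTORC1, Myc and TOP control list, 14 of 15 genes measured, had medians of 0.016, -0.016 and -0.00075, of which the first was -0.0032 without HFD-ED replicate 3, the second 0.0049 without control replicate 3 and the third 0.016 without HFD-ED replicate 2. Eif4ebp1, the mTORC1 target that holds back the cap-binding factor, was 0.42 higher with HFD-ED than in control (SE 0.19, adjusted p = 0.483 by limma) and 0.45 higher than with HFD-CO. Without HFD-ED replicate 3 these differences were 0.25 and 0.28. Rpl36al and Rpsa, ribosomal proteins whose symbols fall outside the rule, were 2 of 4 such genes measured. Rpl36al differed by 0.084, 0.035 and 0.049 (SE 0.057), the first of which was 0.030 without HFD-ED replicate 3, and Rpsa read near the lower end of the scale. Mitochondrial ribosomal proteins, which build the separate ribosome of the mitochondrion, gave medians of 0.053, 0.021 and 0.017 over 76 genes, with 58 of them higher and 18 lower with HFD-ED than in control. The second of these medians was 0.00082 without HFD-CO replicate 1, and the third 0.0055 without HFD-CO replicate 4. In HFD-ED against control, 12 were higher and 2 lower at an unadjusted p of 0.05, among them Mrpl55 with 0.24 (SE 0.055, adjusted p = 0.252 by limma), Mrpl37 with 0.16 and Mrps6 with -0.49. The share at that p was 10.2% over all probes and 25.1% over genes with a mean of at least 7.5, as 66 of the 76 are. In the same comparison, 1 cytosolic gene was higher and 1 lower. The difference between the cytosolic and the mitochondrial list was not tested. None of these lists held a gene past the adjusted threshold.

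**Figure D4:**
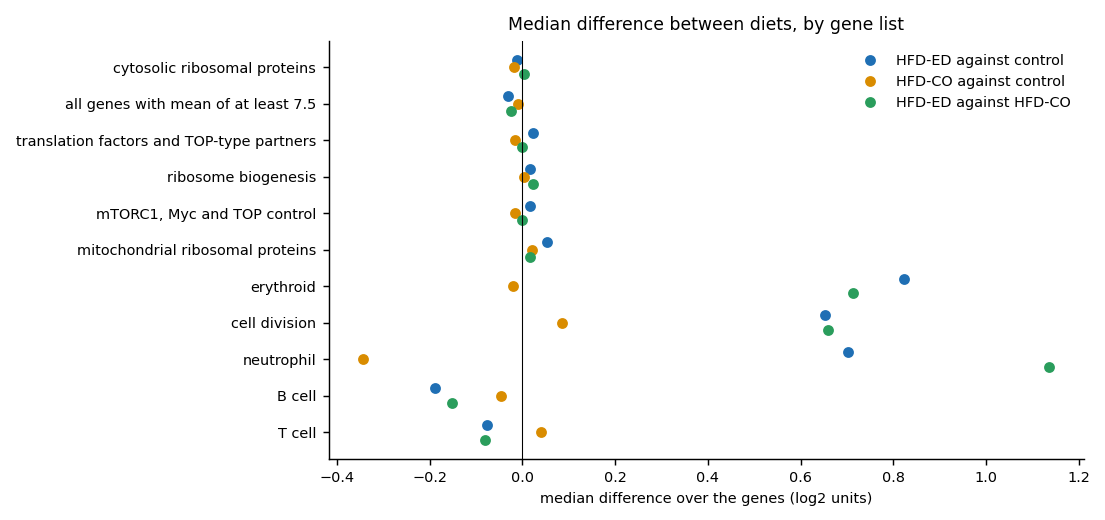
Median difference between diets (x axis, log2 units) over the 61 cytosolic ribosomal protein genes, over all genes with a mean of at least 7.5 and over 9 gene lists (rows), with 1 point for each of the 3 comparisons. The points of the translation lists lie close to 0, while erythroid, neutrophil and cell division markers reach 0.82, 1.14 and 0.66.

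Different probes of 1 gene did not always give 1 answer. For 20 genes, 29 further probes were measured, 13 with a mean under 7.5. Of the 16 others, 2 correlated above 0.5 over the 12 mice with the probe used, and 11 correlated below 0, given here as a description. A second Rps12 probe, at a mean of 14.50, followed the first (r = 0.774) and differed by -0.17 between HFD-CO and control (unadjusted p = 0.0177). A second Rpl38 probe, at a mean of 9.03, was 0.46 higher with HFD-ED than in control (unadjusted p = 0.000512) and 0.40 higher than with HFD-CO (unadjusted p = 0.00151), whereas the brighter one differed by -0.10 and -0.18. A second Rpl31 probe, at a mean of 9.74, differed by 0.30 and 0.40 in these comparisons (unadjusted p = 0.0290 and 0.00636), and a second Rpl23 probe, at 14.05, by -0.25 between HFD-ED and HFD-CO (unadjusted p = 0.0106). A second Rps13 probe, at 8.03, differed by -0.38 between HFD-ED and HFD-CO (unadjusted p = 0.0104 by limma). Which of the Rpl38 probes reads the main transcript was not tested. Over all 29 further probes, 3 had an unadjusted p under 0.05 for HFD-ED and 1 for HFD-CO against control, and 9 between the high-fat diets, where 10.2%, 4.58% and 9.3% of all probes did. The 9 of 29, which differed in both directions, are a larger share than the 9.3% of all probes. Over genes with a mean of at least 7.5, a level that 16 of the 29 probes reach, the share was 21.6%. The 29 probes come from 20 genes, so they do not count separate genes. The probes used for the 61 genes gave 4.92% in that comparison.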

How the data were processed

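Spleen RNA of 12 mice was hybridized to Illumina MouseWG-6 v2.0 BeadChips. The authors processed bead intensities with lumi (version 2.18.0 in the submitters' processing notes), which stabilized the variance and quantile normalized the arrays, and deposited log2 values for 45281 probes, used here without further normalization. Of these probes, 34885 carry 1 gene symbol, 10378 none and 18 several. Scanner files and detection p-values were not used here. Within a diet, r between arrays lay from 0.971 to 0.995 (across probes, which are not replicates).

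One model held all 3 diets (limma 3.58.1 in R 4.3.3, two-sided moderated test), with Benjamini-Hochberg adjustment over all probes and a call at an adjusted p of 0.05. In this fit the study's threshold of 0.001 called 0 probes. The paper itself reports genes past that threshold for both high-fat diets against control, and the cause of this disagreement was not tested. Differences are the first diet minus the second. The members and lists were chosen with earlier results of these data known, although the membership rule reads symbols only. The rule for named genes took, per comparison, up to 5 genes each way with the smallest p, the 5 with the largest SD, all genes of the stalk, extra-ribosomal and paralog lists, and up to 2 genes each way of the other translation lists. The further probes, the lists' genes outside the rule and the 9 dim genes were chosen after their values were seen. Alternatives were the replicate number as a block, an intensity trend, array weights, only the compared diets in the fit, a filter on dim probes, 1 probe per symbol, recentred arrays, averaged probes, bright genes left out, a wider membership and each mouse left out. Replicate numbers were not taken to pair mice in the main fit. Of 12 equally numbered pairs, 4 correlated above 0.1, among them those of replicate 3 (0.25, 0.32 and 0.43). Whether equal numbers share a batch was not tested. Promoter letters come from RefSeq on GRCm38.p6, with no entry for Rpl29.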

Additional observations from a re-analysis of the deposited data

Results flagged for a closer look

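In each diet of 4 mice, the gap between an extreme mouse and its nearest neighbour was divided by the range of the diet, and a ratio above Dixon's 95% critical value was taken as a mouse far from the others. Chance flags about 1 in 20 groups, and 9 of the 135 groups tested passed. Rpl36a stood at 12.67 in control replicate 2, with the other control mice from 12.53 to 12.55 (ratio 0.834). Rps4l stood at 7.33 in the same mouse, with the others from 7.23 to 7.25 (ratio 0.837). Rpl13a stood at 10.27 in HFD-CO replicate 4, with the others from 10.57 to 10.63 (ratio 0.841), and Rpl35 at 13.76 in HFD-CO replicate 1, with the others from 13.85 to 13.87 (ratio 0.845). Rpl38 stood at 14.45 in HFD-ED replicate 4, with the others from 14.23 to 14.26 (ratio 0.871), and Rps2 at 14.74 in HFD-ED replicate 1, with the others from 14.59 to 14.62 (ratio 0.838).

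Of the list means, the T cell markers deviated by -0.061 in control replicate 1, with the others from 0.047 to 0.060 (ratio 0.893). Translation factors and TOP-type partners deviated by -0.054 in HFD-CO replicate 4, with the others from 0.0075 to 0.017 (ratio 0.864). Pancreatic acinar markers deviated by -0.17 in HFD-ED replicate 1, with the others from -0.65 to -0.60 (ratio 0.905). None of these mice was left out of a result above other than as an alternative.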

How the results depend on the processing

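The number of ribosomal protein genes called at an adjusted p of 0.05 was 0 in all 3 comparisons under every alternative run, and the cause of the shifts below was not tested. With the replicate block, the count at an unadjusted p of 0.05 was 5 for HFD-ED against control and also 5 between the high-fat diets, and it changed no call. Whether equal numbers share a batch was not tested, and 3 of 12 mice correlated best with a mouse of their own number. For HFD-ED against control the count was 1 with an intensity trend, 1 with array weights, 4 with the mean of all probes and from 0 to 4 with 1 mouse left out. For HFD-CO against control it was 1 with dim probes left out, 0 with genes in the top 1% of probes left out and from 1 to 5 with 1 mouse left out. For HFD-ED against HFD-CO it was 1 with array weights, 8 with the mean of all probes and from 2 to 6 with 1 mouse left out. The share over all probes was not taken under these alternatives, so their counts cannot be read against a background. The median for HFD-CO against control was 0.0011 without genes in the top 1% and from -0.030 to -0.0013 with 1 mouse left out. Without the 9 genes with a mean under 7.5, an alternative chosen after seeing the data, the medians were -0.015, -0.022 and 0.0055. The counts of the main fit stay the same without them, since none of the 9 had an unadjusted p under 0.05 in it. The count of 1 given above with dim probes left out came from a fit to the brighter probes alone. Among genes named from the other lists, Rpsa turned from -0.0053 to 0.0060 with array weights, 0.022 without control replicate 3 and 0.019 without HFD-ED replicate 2 for HFD-ED against control (from -0.025 to 0.022 with 1 mouse left out), and to -0.0015 without HFD-CO replicate 1 between the high-fat diets (-0.0015 to 0.052). Rpl36al turned to -0.0050 without HFD-ED replicate 3 in the latter (-0.0050 to 0.087). The array ceiling of 14.79 and the compressed lower end limit what the brightest and the dimmest probes can show.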
